A study of Macaca mulatta with 9 samples.

Results

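GLUD1, TDO2 and AADAT are enzymes that break down glutamate, tryptophan and the tryptophan product kynurenine. Their probe sets were taken as those whose array annotation gives exactly one of these symbols, which found 4 of 52766 non-control probe sets: 2 for GLUD1, 1 for TDO2 and 1 for AADAT. The genes were chosen by their fold changes and adjusted p-values between the groups of these same arrays, so their own levels and fold changes are given here as a description, without a test. In outline, GLUD1 was high only on the arrays of 1 group (Western-style diet), TDO2 was high only on the arrays of another (the diet with testosterone), and AADAT was lower on the arrays of both than in controls.

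Glutamate dehydrogenase, the product of GLUD1, works in mitochondria and releases ammonia from glutamate to give 2-oxoglutarate, an intermediate of the citric acid cycle. Tryptophan 2,3-dioxygenase, the product of TDO2, is a haem enzyme best known from liver that opens the indole ring of tryptophan and so starts the kynurenine pathway. AADAT, also called kynurenine aminotransferase II, moves an amino group from kynurenine or from the lysine product 2-aminoadipate to 2-oxoglutarate, giving kynurenic acid or 2-oxoadipate together with glutamate. Glutamate thus links the first enzyme and the last, and kynurenine links the other two.

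The samples were small antral follicles, ovarian follicles with a fluid-filled cavity, from young adult female rhesus macaques in the early follicular phase. Control females ate a standard diet, a second group ate a Western-style diet (WSD), and the remaining group ate that diet while androgen was kept chronically elevated (WSD+T). Each group had 3 arrays, labelled as biological replicates. WSD+T replicates 1 and 3 were closer to each other (SD of their log2 differences 0.211) than any other pair of 1 group (0.317 to 1.03), and whether they share material was not tested. With the pair averaged as 1 sample, no probe set was called in either comparison with WSD+T (limma, 3055 against control and 3935 against WSD at an unadjusted p under 0.05). Follicles of healthy appearance from 1 ovary of a female were pooled, with 3.7 ± 0.3 follicles a pool (SD or SE not given), and lysed whole, so the follicle wall, granulosa cells and cumulus-oocyte complex were measured together, and fewer cells of a type cannot be told apart from less RNA per cell. No group received testosterone on the standard diet, so an action of testosterone apart from the diet was not measured.

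Values are linear signal intensities, which the authors had scaled to the same trimmed mean (200.01) on every array, and the median signal per array ran from 15.9 to 23.7. Of the follicle's own cell types, all 9 listed granulosa markers on the array, all 6 theca markers and 8 of 9 oocyte markers had a mean above the filter used for testing, a signal of about 21.2. The arrays of the 3 groups were unequally spread: the mean within-group variance of the tested probe sets was 0.152 in control, 0.330 in WSD and 0.0411 in WSD+T, in squared log2 units. The linear model gives each probe set 1 spread for all groups, so comparisons of WSD with control borrow from the tighter WSD+T arrays. The number of arrays limits the precision throughout.

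GLUD1 was measured best by probe set MmugDNA.23329.1.S1_at. Its signal was 283, 155 and 207 on control replicates 1 to 3. On the WSD arrays it was 1337, 1003 and 1501. On the WSD+T arrays it was 219, 237 and 287. The lowest WSD array was thus more than 3 times as bright as the brightest array of either other group, and the control and WSD+T arrays overlapped. Group means were 215 ± 64.6 in control, 1280.2 ± 254 in WSD and 248 ± 35.5 in WSD+T (SD, n = 3 each), so that WSD stood 5.95-fold above control and 5.17-fold above WSD+T on the linear scale. On the scale of log2(signal + 16), used for all fold changes here, the differences were 2.51 (SE 0.24) for WSD minus control and -2.29 (SE 0.24) for WSD+T minus WSD. WSD+T minus control was 0.22, with a 95% interval from -0.32 to 0.76.

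The other GLUD1 probe set, MmugDNA.42274.1.S1_at, was dim on all arrays and had a mean under the filter, so it was not tested. Its signals were 9.29, 17.4 and 20.4 in control, 28.0, 13.1 and 31.3 in WSD, and 18.6, 16.2 and 19.5 in WSD+T. WSD replicates 1 and 3 were the brightest of the 9 arrays, but WSD replicate 2 lay below 2 of the control arrays and all WSD+T arrays, and the groups overlapped. The GLUD1 pattern therefore rests on 1 probe set, and which transcripts each of the pair detects was not tested. The array annotation's gene number for both is absent from the RefSeq table, which lists GLUD1 under another number, so the gene's name here rests on the array annotation alone.

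TDO2 (probe set MmuSTS.3862.1.S1_at) had signals of 70.1, 13.7 and 18.0 on control replicates 1 to 3. They were 20.4, 41.8 and 7.34 on the WSD arrays and 278, 171 and 173 on the WSD+T arrays. Control and WSD arrays overlapped, several of them were under the signal of 21.2, and every WSD+T array was more than 2 times as bright as the brightest of these 6. The group means were 33.9 ± 31.4 in control, 23.2 ± 17.4 in WSD and 207 ± 61.2 in WSD+T. The log2 difference was 2.30 (SE 0.45) for WSD+T minus control and 2.57 (SE 0.45) for WSD+T minus WSD. For WSD minus control it was -0.27, with a 95% interval from -1.31 to 0.76. One array carried much of the control spread: without control replicate 1 the difference of WSD+T from control became 2.78, and that of WSD from control changed sign to 0.20.

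AADAT (probe set MmugDNA.36251.1.S1_at) was the enzyme whose largest difference between groups was the smallest of the 3. Control signals were 138, 114 and 136, WSD signals 71.4, 54.5 and 84.4, and WSD+T signals 91.2, 91.5 and 64.2. All 6 arrays of the diet groups lay below all 3 control arrays, and the diet groups overlapped each other. Means were 129 ± 13.3, 70.1 ± 15.0 and 82.3 ± 15.7 in the same order, with log2 differences of -0.76 (SE 0.19) for WSD minus control, -0.57 (SE 0.19) for WSD+T minus control and 0.19 (SE 0.19) for WSD+T minus WSD. The 95% interval of the last ran from -0.23 to 0.61.

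**Figure D1:**
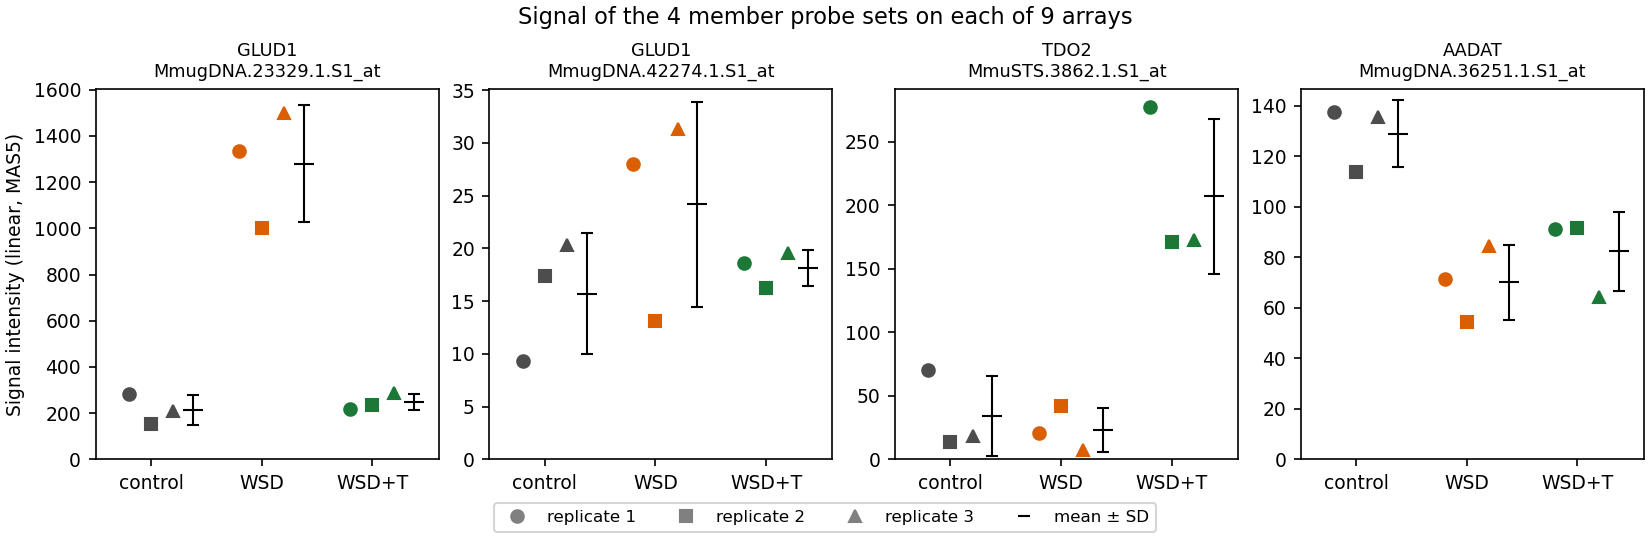
Linear signal intensity (vertical axes, each starting at 0) of the 4 GLUD1, TDO2 and AADAT probe sets on 9 arrays, by group; symbols mark replicates and black bars the mean ± SD of 3 arrays. GLUD1's first probe set is high on the 3 WSD arrays (1003 to 1501), TDO2 on the 3 WSD+T arrays (171 to 278), and AADAT on the 3 control arrays (114 to 138), while GLUD1's second probe set stays under 32 everywhere.

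Among the 3 tested probe sets, limma's fit over all 26383 tested probe sets, at an adjusted p of 0.05, called GLUD1 higher and AADAT lower in WSD than in control, where 14.5% of all probe sets were called (4.78% higher, 9.68% lower). TDO2 was called higher in WSD+T than in control, where 1.97% of probe sets were called (0.542% higher, 1.43% lower), and AADAT was not. In WSD+T against WSD, TDO2 was called higher and GLUD1 lower, beside 2.99% of all (2.04% higher, 0.948% lower). The lower share of all calls was 66.9% in WSD against control but 46.8% after centring each array on its median, and 31.7% in WSD+T against WSD but 60.0%. These contrasts are the ones in which the genes were noticed, so nothing is read from the counts. Likewise, groups did not overlap for 30.8% of all tested probe sets in WSD against control (10.6% higher, 20.2% lower). The share was 36.8% in WSD+T against control (18.8% higher, 18% lower) and 28.5% in WSD+T against WSD (17.5% higher, 10.9% lower). AADAT's call in WSD against control was lost without any 1 of the control arrays, WSD replicate 1 or 2 or WSD+T replicate 1, TDO2's against control in 6 of 9 fits that left out 1 array, and GLUD1's and TDO2's in WSD+T against WSD without any 1 of the WSD+T arrays, TDO2's also without WSD replicate 1. By size of difference, GLUD1 ranked 59 of 26383 in WSD against control and 37 in WSD+T against WSD, and TDO2 ranked 221 in WSD+T against control and 16 in WSD+T against WSD. TDO2's control and WSD signals were mostly at or under the filter's signal, so its size and rank depend on the added constant: with 64 in place of 16 the differences were 1.49 and 1.63, and with 1 they were 2.90 and 3.36. The comparisons share arrays, so the member values in them are not independent of one another.

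The neighbouring pathways were described through 6 lists, in which the brightest tested probe set stands for each gene, leaving out GLUD1, TDO2 and AADAT. They were drawn up by pathway, with earlier results of these arrays known, and held 64 tested genes. In WSD against control 9 rose and 4 fell, 20.3% in all, beside 15.4% of all 10002 tested genes (4.74% higher, 10.7% lower), with a median difference of -0.04 beside -0.08 for all genes. In WSD+T against control none rose and 1 fell, 1.56% beside 2.35% of all genes (0.62% higher, 1.73% lower). In WSD+T against WSD 2 rose and 3 fell, 7.81% beside 2.85% (2.06% higher, 0.79% lower), with a median of -0.08 beside 0.09.

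Of the 17 tested glutamate and glutamine enzymes, 3 rose and 2 fell in WSD against control and 12 did not pass (median -0.15). ASNS, which makes asparagine from aspartate with the amide group of glutamine, went from 161 ± 13.8 to 739 ± 465 (1.92, limma's adjusted p = 0.0166). GFPT2, which uses glutamine to start hexosamine synthesis, went from 71.1 ± 17.7 to 292 ± 159.9 (1.72, limma's adjusted p = 0.0120), whereas its paralogue GFPT1 fell from 246 ± 13.7 to 127 ± 16.8 (-0.88, adjusted p = 0.0196). GCLM, the regulatory subunit of the enzyme that joins glutamate to cysteine for glutathione, rose by 0.70. ABAT, the mitochondrial transaminase that breaks down GABA and, like AADAT, passes the amino group to 2-oxoglutarate, fell from 1336 ± 217 to 648 ± 264 (-1.10, adjusted p = 0.0376). Its WSD+T mean was 598 ± 50.2, but the difference from control did not pass there (-1.13, limma's adjusted p = 0.0883), and 1 of its 2 tested probe sets was called in WSD.

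GLUL, GLS2 and GOT1 of the same list passed in no comparison. Glutamine synthetase, GLUL, which consumes glutamate, had means of 1667 ± 590.3 in control, 2982 ± 794 in WSD and 2842 ± 166 in WSD+T (limma's adjusted p = 0.0696 for WSD against control). The liver-type glutaminase gene GLS2, which makes glutamate, had a difference of 0.28 in WSD against control (adjusted p = 0.423). The cytosolic aspartate aminotransferase GOT1 was 308 ± 35.2, 354 ± 59.7 and 333 ± 35.3 in control, WSD and WSD+T. The 1 enzyme of this list called in WSD+T against control was BCAT2, the mitochondrial transaminase that moves the amino group of branched-chain amino acids to 2-oxoglutarate. It fell from 213 ± 16.04 to 95.2 ± 20.3 (-1.06, SE 0.16, limma's adjusted p = 0.0212), with a WSD mean of 141 ± 6.52.

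Among the 13 tested genes of glutamate carriers, 2-oxoglutarate enzymes and regulators, 2 rose and 2 fell in WSD against control (median 0.02). SIRT4, a mitochondrial sirtuin known to inhibit glutamate dehydrogenase by ADP-ribosylation, was 182, 212 and 183 on the control arrays. It was 50.1, 74.6 and 94.3 on the WSD arrays and 155, 173 and 141 on the WSD+T arrays. SIRT4 was thus lower on every WSD array than on every other array, the inverse of GLUD1. Of all tested probe sets, 20.2% were lower without overlap in WSD than in control, and 17.5% than in WSD+T. SIRT4 fell in WSD against control (-1.26, SE 0.20, limma's adjusted p = 0.00723) and rose in WSD+T against WSD (0.98, SE 0.20, limma's adjusted p = 0.0410), and both of its tested probe sets were called in each of these comparisons. WSD+T against control gave -0.27 (adjusted p = 0.489).

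The glutamine carrier of the cell surface, SLC1A5, had signals of 92.0, 76.0 and 55.8 in control, 173, 154 and 263 in WSD and 51.1, 71.6 and 87.5 in WSD+T. All WSD arrays were brighter than all others. Without overlap, 10.6% of all tested probe sets were brighter in WSD than in control, and 10.9% than in WSD+T. SLC1A5 rose in WSD against control (1.21, SE 0.25, limma's adjusted p = 0.0168) and fell in WSD+T against WSD (-1.29, SE 0.25, adjusted p = 0.0382). SLC7A11, which exports glutamate in exchange for cystine, went from 14.8 ± 3.92 in control to 383 ± 399 in WSD (3.25, limma's adjusted p = 0.0147). Its control level was under the filter's signal, so the size depends on the added constant, and in WSD+T against WSD it did not pass (-2.53, adjusted p = 0.0695). The mitochondrial 2-oxoglutarate carrier SLC25A11 fell in WSD against control, from 535 ± 71.3 to 291 ± 32.7 (-0.84, limma's adjusted p = 0.0192, 1 of 2 probe sets called). The mitochondrial glutamate carrier SLC25A22 was 238 ± 14.9, 226 ± 16.7 and 196 ± 24.9 in the 3 groups and passed in none of the comparisons. The glutamine carrier SLC38A1 fell in WSD+T against WSD (-0.93, limma's adjusted p = 0.0370), from 336 ± 80.1 to 166 ± 9.74, with 262 ± 28.6 in control.

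**Figure D2:**
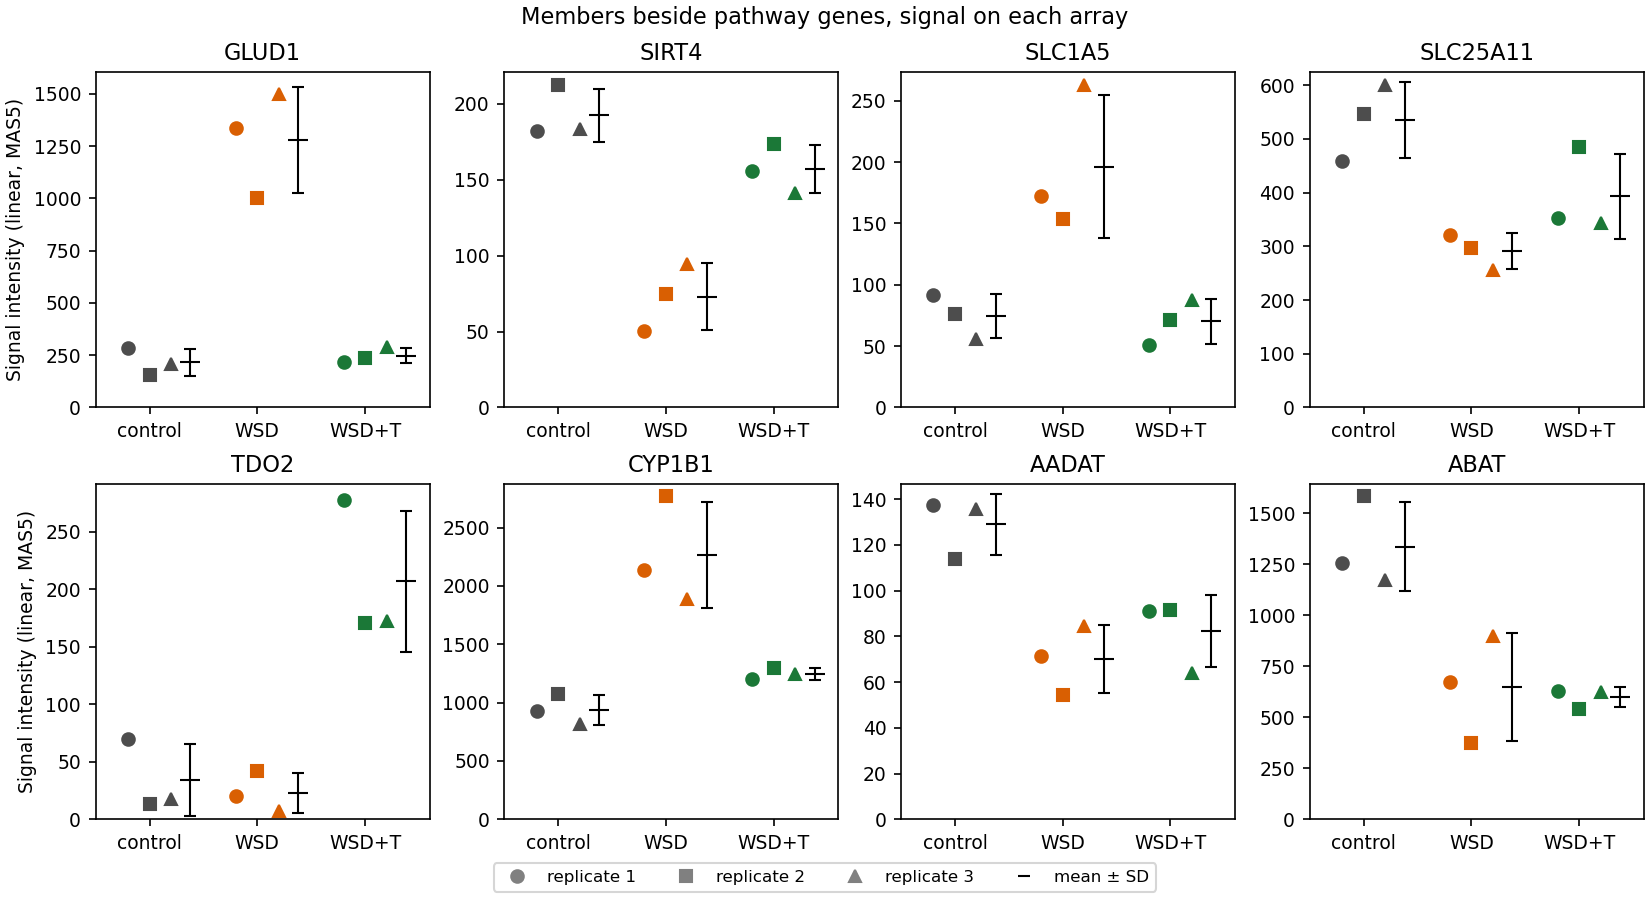
Linear signal (vertical axes from 0) of GLUD1, TDO2 and AADAT and of 5 pathway genes on each array, by group, with symbols for replicates and black bars for the mean ± SD of 3 arrays. SIRT4 is lowest on the 3 WSD arrays (50.1 to 94.3), where GLUD1, SLC1A5 and CYP1B1 are highest, while ABAT, like AADAT, is lower on all 6 diet arrays than in control.

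In the kynurenine pathway and NAD synthesis list none of 11 tested genes passed in WSD against control (limma, 0 with an unadjusted p under 0.05 too; median -0.12), and none in WSD+T against control (1 with an unadjusted p under 0.05; median 0.08). IDO1, the inducible enzyme that carries out the same step as TDO2, had signals of 44.9, 11.5 and 29.5 in control, 73.5, 256 and 19.4 in WSD, and 74.4, 39.1 and 70.5 in WSD+T. The WSD+T arrays did not stand apart in IDO1 as they did in TDO2, and the brightest array was WSD replicate 2. KYNU, kynureninase, which splits kynurenine and hydroxykynurenine, varied with the array: 333, 109.5 and 31.8 in control, 528, 1351 and 34.0 in WSD, and 330.1, 235 and 346 in WSD+T. Without WSD replicate 3, both IDO1 and KYNU passed in WSD against control (1.88 and 2.75, limma's adjusted p = 0.0302 and 0.0313), against 1.17 and 1.38 (adjusted p = 0.254 and 0.432) with all arrays. Calls rose generally in that fit, to 6628 probe sets and 23 list genes, against 3817 and 13 with all arrays. Within control and within WSD, KYNU was brightest on the array with the highest myeloid marker sum, as was IDO1, and WSD replicate 3 had the lowest such sum of all arrays (852). The part of myeloid cells in these values was not tested.

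The other aminotransferases that can act on kynurenine passed in no comparison. KYAT1 had means of 365 ± 91.3, 311 ± 167 and 322 ± 64.2 in control, WSD and WSD+T, and KYAT3 had 1129 ± 92.6, 1242 ± 351 and 1197 ± 48.8. Their adjusted p from limma ran from 0.586 to 0.974. Kynurenine hydroxylase, KMO, stayed dim at 34.0 ± 5.91, 26.4 ± 5.10 and 35.0 ± 8.83, and HAAO and QPRT, which carry the pathway on toward NAD, also passed nowhere. The 1 call of this list was NMNAT3, the mitochondrial enzyme of the last NAD synthesis steps, at 183 ± 26.6 in control, 163 ± 34.0 in WSD and 318 ± 38.2 in WSD+T. It rose in WSD+T against WSD (0.91, SE 0.18, limma's adjusted p = 0.0411), and WSD+T against control gave 0.75 (adjusted p = 0.0765). Like TDO2, NMNAT3 was brighter on all 3 WSD+T arrays than on the other 6. Of all tested probe sets, 18.8% were brighter without overlap in WSD+T than in control, and 17.5% than in WSD.

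Of 8 tested genes of other tryptophan use and of the aryl hydrocarbon receptor, a transcription factor that kynurenine and kynurenic acid can activate, 3 rose in WSD against control (median 1.02). CYP1B1, a target of that receptor, had signals of 926, 1075 and 813 in control, 2133, 2775 and 1891 in WSD and 1199, 1295 and 1245 in WSD+T. It rose in WSD against control (1.25, SE 0.18, limma's adjusted p = 0.00539) and fell in WSD+T against WSD (-0.84, SE 0.18, adjusted p = 0.0460), with all 3 of its probe sets called both times. On the WSD+T arrays, where TDO2 was high, CYP1B1 did not pass against control (0.41, limma's adjusted p = 0.249). TIPARP, another target of the receptor, rose in WSD (0.93, adjusted p = 0.0347), as did WARS1, the cytosolic tryptophanyl-tRNA synthetase (0.53, limma's adjusted p = 0.0446).

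AADAT also acts in lysine breakdown. Of 5 tested genes of lysine and 2-aminoadipate breakdown, each by its brightest probe set, none passed in any comparison, with 1, 2 and 0 at an unadjusted p under 0.05 in WSD against control, WSD+T against control and WSD+T against WSD. The median difference from control was -0.20 in WSD and -0.49 in WSD+T. DHTKD1, a subunit of the enzyme that takes 2-oxoadipate, AADAT's product, was 429 ± 34.9 in control, 248 ± 96.6 in WSD and 283 ± 20.8 in WSD+T (limma's adjusted p = 0.0604 for WSD against control). It has 4 tested probe sets, and the other 3 were called lower in WSD. AASS, which makes 2-aminoadipate semialdehyde, was 238 ± 105, 241 ± 123 and 173 ± 5.73. Of 10 tested steroid-receptor and stress regulators 1 rose in WSD, CEBPD (1.00, adjusted p = 0.0111), and none passed in WSD+T against control (2 with an unadjusted p under 0.05). The glucocorticoid receptor gene NR3C1, whose hormone induces TDO2 in liver, and its target FKBP5 gave -0.30 and 0.07 there (adjusted p = 0.370 and 0.925). TSC22D3, PER1 and ZBTB16 of the same list passed in no comparison. In control, WSD and WSD+T, TSC22D3 was 1558 ± 147, 1155 ± 72.2 and 1741 ± 68.7. PER1 was 35.4 ± 9.94, 64.5 ± 39.6 and 50.2 ± 7.51, and ZBTB16 was 51.6 ± 9.96, 81.1 ± 36.7 and 64.9 ± 8.52. Whether glucocorticoid action differed was not tested.

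**Figure D3:**
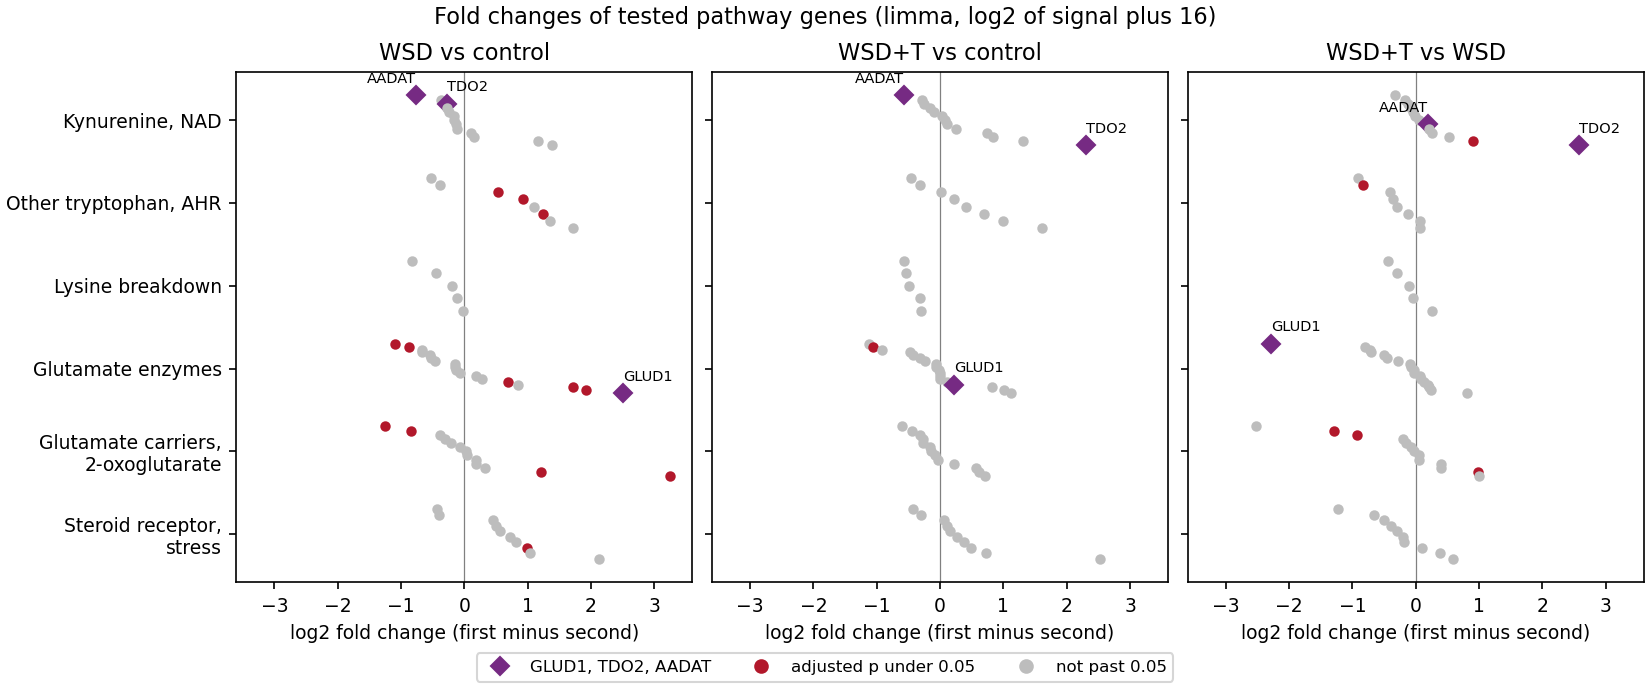
Log2 difference (horizontal axis, first group minus second) of every tested gene of the 6 lists in the 3 comparisons, with 1 point per gene; purple diamonds are GLUD1, TDO2 and AADAT, red points passed an adjusted p of 0.05 and grey points did not. GLUD1 lies at 2.51 and -2.29 where WSD is compared, and TDO2 at 2.30 and 2.57 where WSD+T is compared, apart from the other genes of its list.

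These calls depended on single arrays and on the shared spread. With limma fitted to the 6 arrays of WSD and control alone, 4 of the 13 called genes passed: CYP1B1, GFPT1, SIRT4 and SLC7A11 (adjusted p = 0.0405, 0.0471, 0.0439 and 0.0487). Of all 13, CEBPD, CYP1B1, GFPT2 and SIRT4 passed in each fit that left out 1 array, with highest adjusted p = 0.0380, 0.0201, 0.0441 and 0.0295. Without control replicate 2, ASNS, GFPT1, SLC1A5 and SLC25A11 missed the threshold (limma's adjusted p = 0.0571, 0.0627, 0.0517 and 0.0608), and without control replicate 3, GFPT1, SLC1A5, SLC25A11 and SLC7A11 did (0.0594, 0.0566, 0.0625 and 0.0510). GFPT1 also missed it without WSD replicate 1 (0.0567). ABAT, GCLM, TIPARP and WARS1 passed in 2, 3, 2 and 1 of 9 such fits, with highest adjusted p = 0.115, 0.0926, 0.0968 and 0.115. BCAT2 passed in 5 of 9, missing without control replicate 2 or 3 or WSD+T replicate 1 or 3 (highest 0.134). None of the 5 genes called in WSD+T against WSD passed with the 6 arrays of those groups alone (adjusted p from 0.0761 to 0.0908) or without any 1 of the WSD+T arrays (highest 0.182), control replicate 1 or 2, or WSD replicate 1. Without control replicate 3, SLC1A5 alone of the 5 passed (limma's adjusted p = 0.0493). Every called gene kept its direction in all alternatives.

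Cell type markers differed between arrays too, and their part in the values above was not tested. The summed signal of 11 macrophage and myeloid markers (of 14 listed; ITGAM was under the filter) ran from 1614 to 9046 in control, from 852 to 21805 in WSD and from 13507 to 15422 in WSD+T. For 8 endothelial markers, with KDR under the filter, the ranges were 1093 to 1713, 523 to 3852 and 2052 to 2367. TDO2 was highest within control on replicate 1 and within WSD on replicate 2, the arrays with the highest myeloid and endothelial sums of their groups. WSD replicate 2, with sums of 21805 and 3852, had a TDO2 signal of 41.8, and WSD replicate 1 had a myeloid sum of 14490 with a TDO2 signal of 20.4. Of 6 hepatocyte markers, the cell type in which TDO2 is best known, 4 were on the array, TAT was under the filter, and the sums were 1241 to 1407, 1071 to 1351 and 1103 to 1240 in control, WSD and WSD+T. The sum of 3 smooth muscle and pericyte markers, of 6 listed, was 2470 to 3225, 3300 to 4017 and 4311 to 4700 in the same order. As TDO2 was, it was thus highest on the WSD+T arrays, though MYH11, TAGLN and NOTCH3 singly each overlapped with another group there. For 2 erythrocyte markers, of 4 listed, the sums were 589 to 896, 589 to 684 and 231 to 347. HBB was lower and ALAS2 higher on the WSD+T arrays than on the others.

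Some oocyte markers were also brightest on the WSD+T arrays, and others were not. The summed signal of 9 oocyte markers, of 14 listed, with NOBOX under the filter, ran from 527 to 1111 in control, from 1021 to 1520 in WSD and from 1239 to 1415 in WSD+T. The highest sum was on WSD replicate 2, where TDO2 was 41.8, and ZP4 gave 868 of it. The mean of their log2 values, each centred over the 9 arrays, was instead highest on the 3 WSD+T arrays (0.262 to 0.458). The next array was WSD replicate 2 (0.174). FIGLA, an oocyte transcription factor, was 45.7, 30.1 and 9.96 in control, 62.8, 31.8 and 26.6 in WSD, and 108, 146 and 188 in WSD+T. It was the 1 marker of its list called higher in WSD+T against control (1.93, limma's adjusted p = 0.0380). NLRP5, ZAR1 and ZP3, also made by oocytes, were likewise brighter on the 3 WSD+T arrays than on the other 6. They did not pass in WSD+T against control (limma's adjusted p = 0.284, 0.223 and 0.189). Of all tested probe sets, 18.8% were brighter without overlap in WSD+T than in control, and 17.5% than in WSD. The share brighter than both was not counted. ZP4 was instead brightest on the WSD arrays (728 to 868, against 287 to 478 in WSD+T). BMP15, ZP1 and DAZL overlapped between the groups, and NOBOX had its lowest mean in WSD+T (2.58).

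The WSD array with the highest GLUD1 signal, replicate 3, had the lowest myeloid sum of all 9 (852). Of 5 tested stromal and 3 tested surface epithelium markers, 1 of each was called in WSD against control: LUM, opposite in direction to GLUD1, and KRT8. None of the 5 tested stromal markers had a positive difference in WSD against control (median -0.47). All 5 had one in WSD+T against WSD (median 0.79). DCN was 2475 ± 229, 1825 ± 469 and 3114 ± 414 in control, WSD and WSD+T, and TCF21 was 159 ± 105, 85.2 ± 42.7 and 266 ± 36.5. The stromal mean of centred log2 values was lowest on the WSD arrays (-0.877 to -0.178, against 0.166 to 0.527 elsewhere), while the stromal sums overlapped. COL1A1 and KRT18 differed from LUM and KRT8 in their pattern. COL1A1 was 2343 ± 204, 2216 ± 957 and 2133 ± 152 in control, WSD and WSD+T, and KRT18 was 64.3 ± 4.37, 45.5 ± 20.4 and 69.4 ± 9.23. The stromal proteoglycan LUM was 920.3, 749 and 417 in control, 22.4, 32.4 and 9.79 in WSD, and 197, 431 and 191 in WSD+T. It was called lower in WSD against control (-4.22, limma's adjusted p = 0.00296) and higher in WSD+T against WSD (2.89, adjusted p = 0.0205). KRT8, a keratin of epithelia from the surface epithelium list, was called higher in WSD against control (1.64, limma's adjusted p = 0.00848), with signals from 740 to 1398 in WSD, from 299 to 406 in control and from 435 to 670.3 in WSD+T. AADAT was low where granulosa markers were low. The sum of 9 granulosa markers, of 12 listed, ran from 10828 to 14722 in control, from 7007 to 10980 in WSD and from 8401 to 9298 in WSD+T. WSD replicate 2 had the lowest value of both AADAT and the sum. However, WSD replicate 1 had a sum of 10980 with AADAT at 71.4, and control replicate 1 had 10828 with AADAT at 138. SERPINE2 alone gave 5054 and 4155 of these 2 sums. The granulosa mean of centred log2 values was lower on every WSD and WSD+T array than on the control arrays. It was 0.471 to 0.878 in control and at most 0.107 elsewhere, on WSD replicate 1. Within WSD+T, AADAT was lowest on replicate 3 (64.2) and the sum on replicate 1 (8401). Single markers moved in both directions: in WSD against control 1 of the 9 was called higher (the inhibin subunit gene INHBA) and 2 lower (INHA and INHBB), and INHA and INHBB were called lower in WSD+T against control too. The part of granulosa content in the AADAT values was not tested.

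**Figure D4:**
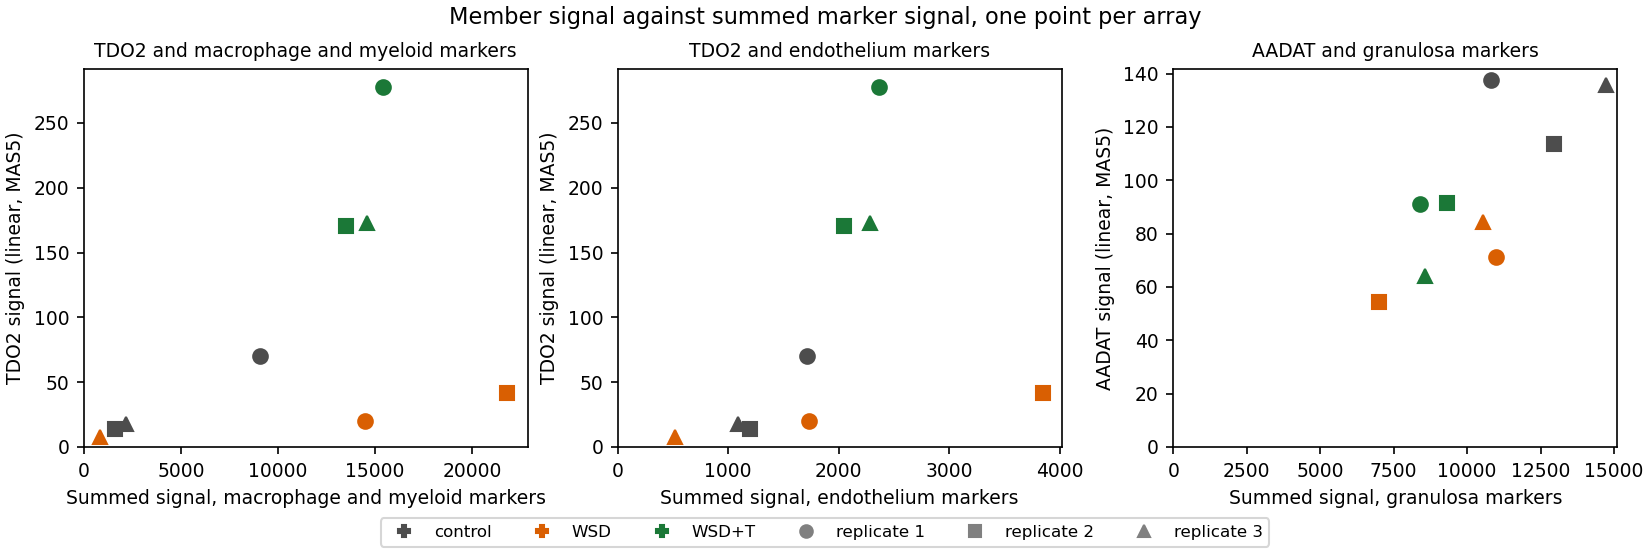
Signal of TDO2 or AADAT (vertical axes from 0) against the summed signal of a marker list (horizontal axes from 0), with 1 point per array, coloured by group and shaped by replicate. WSD replicate 2 has the highest myeloid and endothelial sums (21805 and 3852) with TDO2 at 41.8, below the WSD+T arrays (171 to 278), and AADAT is highest on the 3 control arrays.

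Over the 9 arrays, the log2 values of GLUD1 and TDO2 had a Pearson r of -0.45, GLUD1 and AADAT -0.60, TDO2 and AADAT -0.17, and the GLUD1 probe sets 0.51 with each other. These arrays fall into groups, so the correlations describe the group pattern. Of 9999 other tested genes, EIF1B (r = 0.99), PBDC1, ATG5, DDX3X and RCL1 (0.97) followed GLUD1 most closely. EIF1B was 1427 ± 49.5 in control, 1906 ± 95.7 in WSD and 1471 ± 59.7 in WSD+T, so the shape was alike and the relative difference smaller. TDO2 was followed most closely by WHAMM (0.96), TENT5B, EDN1, RGS1 and CLDN5 (0.94). EDN1, the vasoconstrictor peptide endothelin-1, was 30.4 ± 22.2, 38.6 ± 27.2 and 150.1 ± 37.6, and CLDN5, an endothelial tight junction protein that is also in the marker list above, 41.2 ± 12.6, 46.7 ± 27.9 and 108 ± 9.22. AADAT was followed by ALDH6A1 (0.97), ZNF575, SLC2A11, RAD21 and NOS2 (0.95). ALDH6A1, a mitochondrial dehydrogenase of valine breakdown, was 290 ± 28.9, 136 ± 36.1 and 179 ± 16.1, lower on both diets as AADAT was.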

How the data were processed

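The authors deposited 1 linear signal intensity for each probe set and array, made with MAS5 per the submitters' processing notes, and scaled to 1 trimmed mean per array. Per the labels' protocols, RNA was amplified with a NuGEN kit before 1-colour hybridisation. MAS5's settings and version, its detection calls and the genome build are not given in the sources used here, and no sequences or coordinates were used. Symbols came from the array annotation; the RefSeq table gave TDO2 and AADAT the same symbol, and it lists GLUD1 under another gene number than the array annotation does.

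After 99 control probe sets were left out, 52766 remained. log2(signal + 16) was fitted with 1 mean per group on all 9 arrays by limma 3.58.1 (lmFit, eBayes) in R 4.3.3. Probe sets with a mean at or above the median (26383) were tested, and p-values were adjusted by Benjamini-Hochberg over all of them at 0.05. The pipeline was tested on simulated data. Figures used matplotlib 3.10.9.

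The genes, lists and tests were chosen with earlier results of these data known. By rule, all GLUD1, TDO2 and AADAT probe sets, the called list genes (up to 8 per list and comparison), fixed pathway neighbours whatever their p, and the 5 genes most correlated with each of the 3 were named. GLS2, SLC25A22, NR3C1, FKBP5, TSC22D3, PER1 and ZBTB16 fell outside it and were chosen after their values were seen.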

Additional observations from a re-analysis of the deposited data

How the results depend on the processing

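GLUD1, TDO2 and AADAT kept the direction of their differences under all alternatives, except TDO2 in WSD against control, which was -0.27 and became 0.20 without control replicate 1 and 0.05 without WSD replicate 3 (leaving out 1 array gave -0.60 to 0.20). In WSD against control, 3817 probe sets, 2 of the 3 described and 13 list genes were called. The first count became 2398 with a filter at the 75th percentile, 1367 with array weights, 2220 with the replicate block, 913 with only the groups compared and 2544 with WSD+T replicates 1 and 3 averaged. AADAT did not pass under median centring, quantile normalization, cyclic loess, array weights, the block or only the groups compared, which left 1 (also 1 with the stricter filter). List genes became 4 with array weights, 8 with the block and 4 with only the groups compared. Leaving out 1 array gave 1735 to 6628 probe sets, 1 to 2 of the 3, and 5 to 23 list genes. The lower share of calls was 66.9%, against 46.8% under median centring, 56.8% under quantile normalization and 50.3% under cyclic loess, and the median of all probe sets moved from -0.08 to 0.05 under median centring.

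In WSD+T against control the counts were 520, 1 and 1. TDO2 did not pass with a pseudocount of 1, no filter, the block or the averaged arrays, and was not tested with the stricter filter (0 each). List genes were 2 with the smallest-p probe set, a pseudocount of 64, quantile normalization or cyclic loess, and 8 with array weights or only the groups compared. Probe sets were 3267 with array weights and 3245 with only the groups compared. The block left 3 probe sets and 0 list genes, and averaging left 0 and 0 (limma, 3055 at an unadjusted p under 0.05). Leaving out 1 array gave 0 to 1777, 0 to 1 and 0 to 6. The lower share was 72.5%, 48.3% with array weights and 44.7% with only the groups compared.

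In WSD+T against WSD the counts were 789, 2 and 5. Probe sets were 300 under median centring, 186 with array weights, 1 with the block, 9 with only the groups compared and 0 averaged (limma, 3935 at an unadjusted p under 0.05). Of the 3 described, 1 passed with a pseudocount of 1, the stricter filter, array weights or only the groups compared, and 0 with the block or averaging. List genes were 1 under median centring, 3 under quantile normalization or cyclic loess, and 0 with array weights, the block, only the groups compared or averaging. Leaving out 1 array gave 0 to 1548, 0 to 2 and 0 to 6. The lower share went from 31.7% to 60.0%, 51.7% and 57.0% under median centring, quantile normalization and cyclic loess. The cause of these shifts was not tested. Same-numbered arrays had residual correlations from -0.30 to 0.19, and not each array correlated best with its own number, so the labels' replicate numbers were not taken as pairs.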
